A study of Mus musculus with 8 samples.

Results

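The genes described here are 34 targets and partners of ATF4, the transcription factor of the integrated stress response, in group 2 innate lymphoid cells (ILC2s) of the mouse large intestine. They were chosen by name and known function, with earlier results of these data known. They comprise 13 stress transcription factors and regulators, 8 enzymes of amino acid and one-carbon synthesis, 8 amino acid transporters and 5 tRNA synthetases. Comparisons of the 34 with all genes therefore describe the list and do not test it. All 34 were found by Ensembl identifier and GENCODE M21 symbol among the 25367 genes of the deposited table, and all 34 were among the 15095 genes that passed the filter on low counts. The lowest count of a member in any library was 33, for Slc7a11.

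The cells were sorted from wild-type C57BL/6 mice, and the labels give the tissue as colon. All 8 cultures held IL-33, IL-25, IL-7 and IL-2 at 10 ng/mL each for 5 days and were then exposed for 16 h to vehicle (4 libraries) or to SC-57461A (4 libraries), an inhibitor of leukotriene A4 hydrolase. No resting or cytokine-free cells are among the groups, and the labels do not say how many animals or separate cultures the libraries stand for. Every p-value therefore rests on how far these libraries spread, and that spread may be technical.

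When amino acids run short or unfolded proteins build up, kinases phosphorylate the translation factor eIF2α, overall translation falls and the ATF4 mRNA is translated more. ATF4 pairs with C/EBP family proteins at composite DNA elements and switches on genes that make, import and charge amino acids, together with genes that brake translation and growth. RNA-seq reads the mRNAs of these genes and not ATF4 protein or eIF2α phosphorylation.

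Most of the 34 genes were higher with SC-57461A, by small amounts in the abundant genes and by more than 2-fold in a few rare ones. The log2 fold change was above 0 for 30 of the 34 (88.2%), with a median of 0.28, against 51.6% and a median of 0.01 over all 15095 genes. In the fit over all libraries (edgeR's quasi-likelihood test, Benjamini-Hochberg adjusted p under 0.05 over all genes tested), Trib3 alone passed the test. That was 1 member higher, where 0.272% of all genes were called higher, and 0 members lower, where 0.0596% of all genes were called lower. At an unadjusted p under 0.05 the same fit held 12 members higher and 0 lower, and DESeq2 called 4 higher (Trib3, Asns, Slc7a11 and Vldlr) and 0 lower. Of all 15095 genes, 516 were higher and 481 lower at that unadjusted p, and DESeq2 called 117 higher and 77 lower.

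The libraries fell into 2 sets that cross the treatments, and the member genes differed between them. Set A was vehicle replicates 1 and 2 with SC-57461A replicates 2 and 3, and set B was vehicle replicates 3 and 4 with SC-57461A replicates 1 and 4. The sets part at the largest gap in summed FPKM (316414 to 336044 in set B, 390628 to 428541 in set A), and the labels give no reason for them. The difference between sets was larger than the treatment fold in 21 of the 34 members, with 17 members higher in set A and 17 higher in set B. With library set as a term in the fit, 15 members passed the test as higher, where 3.01% of all genes were called higher. In that fit 0 members passed as lower, where 2.82% of all genes did, and DESeq2 with the same term called 16 higher and 0 lower. At an unadjusted p under 0.05, edgeR with the set term held 20 members higher and 0 lower. Of all 15095 genes, 1698 were higher and 1706 lower at that unadjusted p. DESeq2 with the set term called 653 of the 15095 genes higher and 851 lower.

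Calls fell in all 4 roles. With the set term, 6 of the 13 stress regulators, 5 of the 8 synthesis enzymes, 3 of the 8 transporters and 1 of the 5 tRNA synthetases passed as higher. Median log2 fold changes over all libraries were 0.26 for the stress regulators, 0.34 for the synthesis enzymes, 0.39 for the transporters and 0.13 for the synthetases.

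Each of the 4 treated libraries lay above each of the 4 vehicle libraries for 8 members (Asns, Phgdh, Shmt2, Slc7a11, Slc1a4, Slc7a3, Trib3 and Vldlr), where 3.01% of all genes did so. No member had every treated library below every vehicle library, where 3.13% of all genes did. Within each set taken alone, both SC-57461A libraries lay above both vehicle libraries in set A and again in set B for 20 members, where 9.63% of all genes did. None lay below in both sets, where 10.3% of all genes did.

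**Figure D1:**
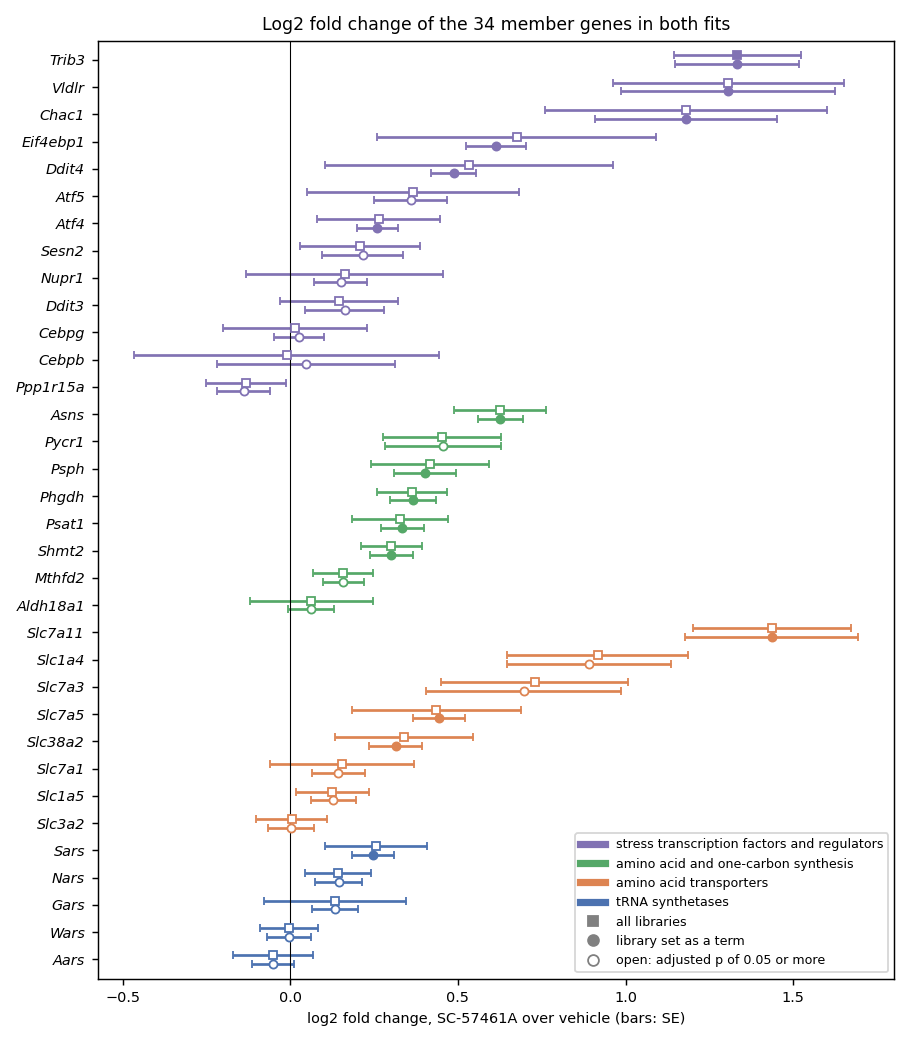
Log2 fold change (SC-57461A over vehicle, bars are SE) of each of the 34 genes, ordered by role, over all libraries (squares) and with library set as a term (circles), filled where the adjusted p is under 0.05. Trib3 is filled in both fits, 15 genes are filled with the set term, and the bars of genes such as Ddit4 shorten once the set is a term while the estimates stay close.

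The composite element that C/EBP and ATF4 proteins bind was searched for as TGATGNAA, on both strands, in the promoter windows of RefSeq (GRCm38.p6), which run from 250 bases before to 50 bases after each gene's start. It was the only motif searched. Of the 34 members 28 had a window by symbol, and 10 of the 28 (35.7%) held a match, against 1219 of the 27025 genes with a window (4.51%). Among members with a window, 5 of the 13 that passed the test with the set term (38.5%) and 5 of the 15 that did not (33.3%) held a match. The members were chosen as ATF4 targets and partners, and this is the element ATF4 binds. Their higher share against all genes can follow from that choice and is a description, not a test. A match is a stretch of letters and not a measured binding site. No window was found by symbol for Eif4ebp1, Nars, Slc1a5, Slc7a3, Slc7a5 and Wars.

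The stretches around the matches are shown for the 5 matched genes that rose, followed by 3 matched genes that did not pass the test, read 5′ to 3′ along each gene's strand, with the element in capitals and at most 30 bases after the start printed. The Asns stretch is at chr6:7693180-7693282 (minus strand), Slc7a11 at chr3:50443622-50443729 (minus), Chac1 at chr2:119350999-119351106 (plus), Trib3 at chr2:152344031-152344096 (minus) and Vldlr at chr19:27216770-27216877 (plus). The stretches of the other genes are Nupr1 at chr7:126625523-126625630 (minus), Aars at chr8:111033680-111033787 (plus) and Gars at chr6:55037921-55038028 (plus). By the gene bounds of the deposited table, the RefSeq start lies inside the gene by 5391 bases in Nupr1, 698 in Aars, 536 in Vldlr, 45 in Asns, 13 in Chac1 and 1 in Slc7a11, at the edge of the gene in Gars and 28 bases outside it in Trib3.
Asns: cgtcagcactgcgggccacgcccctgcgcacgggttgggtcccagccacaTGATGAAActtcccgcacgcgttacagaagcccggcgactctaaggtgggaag
Slc7a11: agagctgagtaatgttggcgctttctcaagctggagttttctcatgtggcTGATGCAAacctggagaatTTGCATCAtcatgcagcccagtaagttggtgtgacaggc
Chac1: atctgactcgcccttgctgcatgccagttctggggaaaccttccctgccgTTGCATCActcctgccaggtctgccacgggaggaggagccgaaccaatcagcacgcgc
Trib3: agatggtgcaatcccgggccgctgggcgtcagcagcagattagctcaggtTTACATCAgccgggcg
Vldlr: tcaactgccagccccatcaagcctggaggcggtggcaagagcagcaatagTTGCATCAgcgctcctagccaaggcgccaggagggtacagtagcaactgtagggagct
Nupr1: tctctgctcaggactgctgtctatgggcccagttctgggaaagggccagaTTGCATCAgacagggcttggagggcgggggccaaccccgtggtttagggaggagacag
Aars: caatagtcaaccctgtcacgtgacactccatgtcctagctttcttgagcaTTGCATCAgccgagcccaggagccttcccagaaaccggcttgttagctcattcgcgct
Gars: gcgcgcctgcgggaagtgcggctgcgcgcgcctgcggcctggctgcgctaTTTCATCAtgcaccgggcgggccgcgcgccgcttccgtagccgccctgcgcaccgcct

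In Slc7a11, 2 matches lie 66 and 47 bases before the start, on opposite strands, and both are in capitals. Aars also holds a second match, TTTCATCA, that begins 9 bases after the start and is not in the stretch shown. In Asns the match begins 23 bases before the start, in Trib3 14 bases after it, and in Chac1 and Vldlr 193 and 200 bases before it. The same letters TTGCATCA stand in Vldlr and Chac1, which rose, and in Nupr1 and Aars, which did not pass the test. Pycr1 and Slc1a4, which also hold a match, are described with their roles.

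Among the stress regulators, Trib3 carried the clearest rise. Trib3 (chromosome 2, 152337422 to 152344032, minus strand) encodes a pseudokinase that binds ATF4 and damps its activity. Its level was 1.92, 1.36, 1.38 and 1.48 CPM, the counts scaled to a common library size, in vehicle replicates 1 to 4 and 3.47, 4.66, 3.61 and 3.78 CPM in SC-57461A replicates 1 to 4. The groups did not overlap, and the lowest treated library was well above the highest vehicle library. Over all libraries the log2 fold change was 1.33 (SE 0.19, adjusted p 0.0269), and with the set term it was 1.33 (SE 0.18, adjusted p 0.00113). The rise was 1.33 in either set. In the fit over all libraries the call was lost when any library but vehicle replicate 1 was left out (adjusted p 0.066 to 0.134, and 0.037 without vehicle replicate 1), while with the set term it held in all 8 fits that left out 1 library.

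Chac1 and Vldlr are rare transcripts with rises of a like size and wider spread. Chac1 (chromosome 2, 119351229 to 119354381, plus strand) encodes an enzyme that degrades glutathione. It stood at 1.07, 1.77, 0.593 and 0.903 CPM in vehicle replicates 1 to 4 and at 1.15, 3.35, 3.08 and 2.26 CPM with SC-57461A. SC-57461A replicate 1 fell inside the vehicle range, although it was above both vehicle libraries of its own set. With the set term the log2 fold change was 1.18 (SE 0.27, adjusted p 0.0253), and the call held only without vehicle replicate 3 or without SC-57461A replicate 1 (adjusted p up to 0.117 otherwise). Vldlr (chromosome 19, 27216484 to 27254231, plus strand) encodes a receptor that takes up triglyceride-rich lipoproteins and binds reelin. Its CPM was 0.765, 1.10, 1.27 and 0.525 in vehicle and 2.97, 2.58, 1.42 and 2.09 with SC-57461A. The groups did not overlap, with SC-57461A replicate 3 close to the vehicle range. Its log2 fold change with that term was 1.31 (SE 0.32, adjusted p 0.033), and the call held only without vehicle replicate 3 or without SC-57461A replicate 3 (adjusted p up to 0.108 otherwise).

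Ddit4 and Eif4ebp1, both brakes in the mTORC1 pathway of growth, rose in each set around very different set levels. Ddit4 (chromosome 10, 59949675 to 59951770, minus strand), also known as REDD1, restrains mTORC1 through the TSC complex. In set A its CPM was 118 and 123 in vehicle and 186 and 179 with SC-57461A. In set B it was 56.7 and 52.5 CPM in vehicle and 71.1 and 70.1 CPM with SC-57461A. Over all libraries the groups overlapped, because set B lay below set A whatever the treatment, and inside each set they did not. The log2 fold change was 0.53 over all libraries (SE 0.43, adjusted p 0.947) and 0.49 with the set term (SE 0.07, adjusted p 0.00127).

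Eif4ebp1 (chromosome 8, 27260327 to 27275656, plus strand) encodes 4E-BP1, which binds the cap-binding protein eIF4E and holds back translation. In set A it was 34.6 and 38.2 CPM in vehicle and 58.6 and 66.0 CPM with SC-57461A. In set B it was 17.8 and 17.7 CPM in vehicle and 22.8 and 25.5 CPM with SC-57461A. The treated libraries were higher inside each set, by 0.78 in set A and by 0.44 in set B on the log2 scale. With the set term the log2 fold change was 0.61 (SE 0.09, adjusted p 0.00173), and the calls of Ddit4 and Eif4ebp1 held in all 8 fits that left out 1 library. Tested for a response that differs between sets, Eif4ebp1 had an unadjusted interaction p of 0.0543, the smallest of the 34, and 0 members passed that test after adjustment, where 0.00662% of all genes did.

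Atf4 itself rose slightly. Atf4 (chromosome 15, 80255184 to 80257540, plus strand) had the highest level of the 34 in vehicle, 140 FPKM ± 17.6 (SD, n = 4). In set A it was 309 and 319 CPM in vehicle and 364 and 401 CPM with SC-57461A, and in set B 237 and 222 CPM in vehicle and 263 and 277 CPM with SC-57461A. The treated libraries were above the vehicle libraries of their own set, and the groups overlapped across sets. Its log2 fold change with the set term was 0.26 (SE 0.06, adjusted p 0.0286), against 0.26 with an adjusted p of 0.919 over all libraries. The call with the set term held only without vehicle replicate 3 or without SC-57461A replicate 2 (adjusted p up to 0.132 otherwise).

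The other stress factors did not pass the test in either fit. Atf5, an ATF4 relative induced by the same pathway, was 10.5, 11.4, 5.44 and 6.61 CPM in vehicle replicates 1 to 4 and 7.38, 15.4, 13.0 and 7.88 CPM with SC-57461A (set term log2 fold change 0.36, SE 0.11, adjusted p 0.0753). In each set both treated libraries lay above both vehicle libraries. Ddit3, which encodes the cell death factor CHOP, was 9.14, 11.7, 7.79 and 6.91 CPM in vehicle and 9.26, 11.1, 10.1 and 8.90 CPM with SC-57461A (log2 fold change 0.16, SE 0.12, adjusted p 0.462). Its treated libraries lay inside the vehicle range, and its log2 fold changes were 0.03 (set A) and 0.30 (set B). Ddit3 shares 68 exon bases with Mars on the opposite strand, and the strand setting of the counts is not given, so reads of the overlap could belong to either gene.

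Nupr1, a small chromatin-associated stress protein, was 124 CPM ± 37.9 in vehicle and 139 CPM ± 47.2 with SC-57461A (SD, n = 4 each, as for the means that follow). Sesn2, a leucine sensor that restrains mTORC1, was 14.5 CPM ± 3.58 against 16.7 CPM ± 1.84. The ATF4 partner genes Cebpb and Cebpg differed by less than their spread: Cebpb was 3.23 CPM ± 1.61 against 3.21 CPM ± 1.61, and Cebpg 52.9 CPM ± 13.9 against 53.4 CPM ± 10.9. Cebpb shares 312 exon bases with Tmem189 on the opposite strand. Ppp1r15a, which encodes the GADD34 subunit that brings a phosphatase to eIF2α, had the most negative fold change of the 34, with 29.6 CPM ± 2.28 in vehicle and 27.0 CPM ± 3.44 with SC-57461A (log2 fold change -0.14 with the set term, SE 0.08, adjusted p 0.317).

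**Figure D2:**
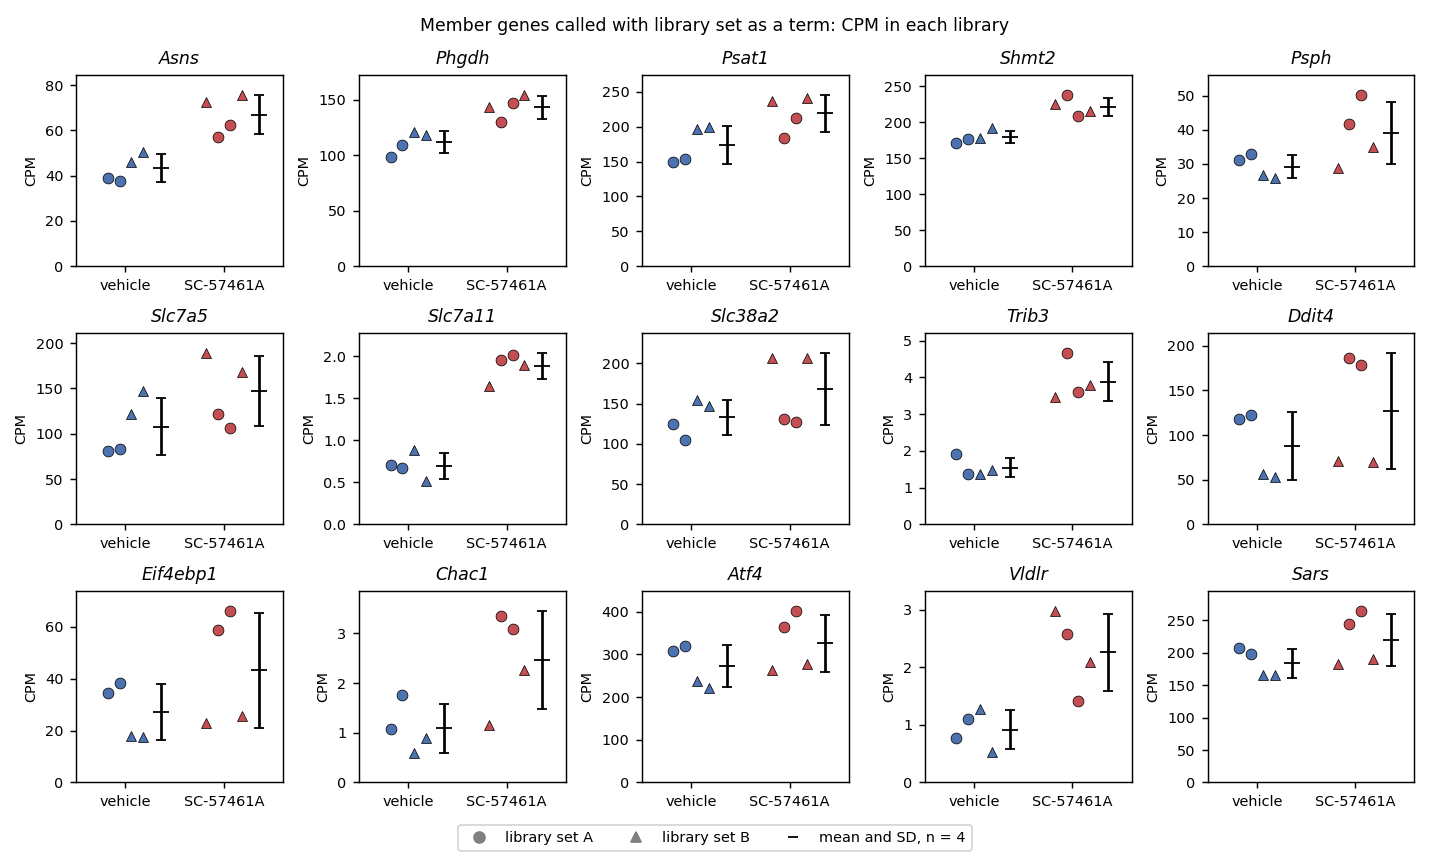
CPM in each library (circles for set A, triangles for set B) of the 15 genes that passed the test with library set as a term, with the mean and SD of the 4 libraries of each treatment. Trib3, Asns and Slc7a11 show treated libraries above all vehicle libraries, while Ddit4 and Eif4ebp1 show circles far above triangles in both treatments, with a rise inside each shape.

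The enzyme of asparagine synthesis and all 3 enzymes of the serine pathway rose with the set term. Asns (chromosome 6, 7675169 to 7693254, minus strand) encodes asparagine synthetase and is a much used readout of ATF4. Its CPM was 38.9, 37.8, 46.2 and 50.6 in vehicle replicates 1 to 4 and 72.4, 57.3, 62.5 and 75.6 in SC-57461A replicates 1 to 4. Every treated library was above every vehicle library. The log2 fold change was 0.63 in both fits, with an adjusted p of 0.214 over all libraries (SE 0.14) and 0.000106 with the set term (SE 0.07). Asns was the one member called in both sets when each was fitted alone (set A adjusted p 0.0318, set B adjusted p 0.0264), and its call with the set term held in all 8 fits that left out 1 library.

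Phgdh (chromosome 3, 98313170 to 98339990, minus strand), Psat1 (chromosome 19, 15904678 to 15947337, minus strand) and Psph (chromosome 5, 129765558 to 129787204, minus strand) catalyse the successive steps from a glycolytic intermediate to serine. Phgdh was 98.4, 109, 121 and 118 CPM in vehicle and 143, 130, 147 and 154 CPM with SC-57461A, without overlap. Psat1 was 149, 153, 196 and 199 CPM in vehicle and 237, 184, 212 and 241 CPM with SC-57461A, where SC-57461A replicate 2 fell inside the vehicle range but above its own set. Psph was 31.1, 32.9, 26.9 and 25.8 CPM in vehicle and 28.8, 41.8, 50.2 and 35.1 CPM with SC-57461A, where SC-57461A replicate 1 fell inside the vehicle range but above its own set. The log2 fold changes with the set term were 0.36 for Phgdh (SE 0.07, adjusted p 0.00949), 0.33 for Psat1 (SE 0.06, adjusted p 0.0109) and 0.40 for Psph (SE 0.09, adjusted p 0.0253).

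The call of Phgdh was lost only without SC-57461A replicate 4 (adjusted p 0.0549) or vehicle replicate 2, where it came to just over the threshold. Psat1 lost its call without vehicle replicate 1, vehicle replicate 2 or SC-57461A replicate 4 (adjusted p 0.0562, 0.0742 and 0.0548). Psph kept it only without vehicle replicate 3, SC-57461A replicate 1 or SC-57461A replicate 2 (adjusted p up to 0.113 otherwise). Phgdh has processed pseudogenes, the closest of them Gm7901 with 98.7% identity and 104 to 345 counts per library. Part of the reads of Phgdh could thus have been assigned elsewhere. Psph shares 452 exon bases with Cct6a on the opposite strand, and the strand setting of the counts is not given. Cct6a had 11797 to 15970 counts per library, against 1429 to 2445 for Psph. Reads of the overlap could belong to either gene, so part of the Psph counts could be reads of Cct6a.

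Shmt2 (chromosome 10, 127517123 to 127522444, minus strand) encodes the mitochondrial enzyme that turns serine into glycine and feeds carbon into folate. It was 172, 177, 179 and 192 CPM in vehicle and 225, 238, 209 and 216 CPM with SC-57461A. The groups did not overlap and the sets hardly differed for this gene. Its log2 fold change with the set term was 0.30 (SE 0.07, adjusted p 0.0192), and the call was lost without vehicle replicates 1 or 2 or SC-57461A replicates 1 or 4 (adjusted p 0.0586 to 0.104).

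The next mitochondrial folate enzyme and the proline enzymes did not pass the test. Mthfd2 was 114 CPM ± 5.56 in vehicle and 127 CPM ± 6.90 with SC-57461A (log2 fold change 0.16 with the set term, SE 0.06, adjusted p 0.147), with both treated libraries above both vehicle libraries inside each set. Aldh18a1, which starts proline and ornithine synthesis from glutamate, was 109 CPM ± 21.3 and 114 CPM ± 22.1 (log2 fold change 0.06, SE 0.07, adjusted p 0.65). Pycr1, which completes proline synthesis and has a promoter match, was 3.32 CPM ± 0.595 and 4.55 CPM ± 0.568 (log2 fold change 0.46, SE 0.17, adjusted p 0.145). Pycr1 moved by 0.78 (set A) and 0.14 (set B) on the log2 scale (unadjusted interaction p 0.0624).

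Among the transporters, the cystine importer Slc7a11 had the largest fold change of the 34 genes over all libraries and the lowest level per length. Slc7a11 (chromosome 3, 49892526 to 50443614, minus strand), known as xCT, brings in cystine in exchange for glutamate and so supplies cysteine for glutathione. Its counts were 43, 33, 51 and 38 in vehicle replicates 1 to 4 and 82, 92, 98 and 99 in SC-57461A replicates 1 to 4, which is 0.512 to 0.889 CPM and 1.65 to 2.01 CPM. The groups did not overlap. Both fits gave a log2 fold change of 1.44, with an adjusted p of 0.0593 over all libraries (SE 0.24) and 0.0072 with the set term (SE 0.26), and the call with the set term held in all 8 fits that left out 1 library. Taken apart, set A gave 1.53 and set B 1.35.

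Slc7a5 (chromosome 8, 121881150 to 121907694, minus strand), known as LAT1, imports large neutral amino acids such as leucine. In set A it was 80.6 and 83.7 CPM in vehicle and 122 and 106 CPM with SC-57461A, and in set B 122 and 147 CPM in vehicle and 189 and 168 CPM with SC-57461A. Treated libraries were higher inside each set, and the groups overlapped across sets. With the set term the log2 fold change was 0.44 (SE 0.08, adjusted p 0.0063, called in all 8 fits that left out 1 library). Slc3a2, the heavy chain that carries both Slc7a5 and Slc7a11 to the membrane, was 138 CPM ± 7.55 in vehicle and 138 CPM ± 14.7 with SC-57461A (log2 fold change 0.00, SE 0.07, adjusted p 0.989).

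Per length, the ratio of Slc7a5 to Slc3a2 in FPKM was, for set A, 0.444 and 0.465 in vehicle and 0.617 and 0.625 in the treated libraries. In set B it was 0.754 and 0.874 in vehicle and 1.10 in both treated libraries. The light chain mRNA thus stood higher against its heavy chain mRNA in the treated libraries of each set, and the ratio also differed between sets.

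Slc38a2 (chromosome 15, 96687394 to 96699698, minus strand), known as SNAT2, is a sodium-coupled importer of small neutral amino acids such as glutamine and alanine. In set A it was 125 and 105 CPM in vehicle and 131 and 127 CPM with SC-57461A, and in set B 154 and 147 CPM in vehicle and 207 and 206 CPM with SC-57461A. The treated libraries of set A stood just above their vehicle libraries and those of set B well above theirs (log2 fold changes 0.17 and 0.46, unadjusted interaction p 0.0553). With the set term the log2 fold change was 0.31 (SE 0.08, adjusted p 0.0365), and the call held only without vehicle replicate 1 or SC-57461A replicate 3 (adjusted p up to 0.161 otherwise).

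The remaining transporters did not pass the test with edgeR. Slc1a4, an exchanger of alanine, serine and cysteine with a promoter match, was 1.35 CPM ± 0.363 in vehicle and 2.55 CPM ± 0.625 with SC-57461A, with no overlap between the groups (log2 fold change 0.89 with the set term, SE 0.24, adjusted p 0.0509). DESeq2 with the same term called Slc1a4 higher (adjusted p 0.0293). Slc7a3, an importer of cationic amino acids, was 0.749 CPM ± 0.0506 and 1.24 CPM ± 0.384, again without overlap (log2 fold change 0.70, SE 0.29, adjusted p 0.18). Its relative Slc7a1, the main arginine importer of many cells, was 125 CPM ± 25.4 and 139 CPM ± 35.6 (log2 fold change 0.14, SE 0.08, adjusted p 0.31). The glutamine exchanger Slc1a5 was 170 CPM ± 15.4 and 185 CPM ± 14.7 (log2 fold change 0.13, SE 0.07, adjusted p 0.279).

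The tRNA synthetases, which charge tRNAs with their amino acids, had the lowest median fold change of the 4 roles. Sars (chromosome 3, 108424865 to 108445209, minus strand), the seryl-tRNA synthetase, was 208 and 198 CPM in vehicle and 244 and 264 CPM with SC-57461A in set A, and 166 and 165 CPM in vehicle and 182 and 190 CPM with SC-57461A in set B. Treated libraries were higher inside each set. Its log2 fold change with the set term was 0.25 (SE 0.06, adjusted p 0.0383), and the call held only without vehicle replicate 3 (adjusted p up to 0.192 otherwise). Nars, for asparagine, was 218 CPM ± 15.2 and 240 CPM ± 15.0, and Gars, for glycine, 132 CPM ± 30.5 and 145 CPM ± 33.2 (adjusted p 0.25 and 0.269 with the set term). Aars, for alanine, was 249 CPM ± 27.3 and 240 CPM ± 23.7 with a log2 fold change of -0.05 (SE 0.06), and it shares 1326 exon bases with Exosc6. Wars, for tryptophan, was 84.5 CPM ± 5.06 and 84.3 CPM ± 1.95 (log2 fold change 0.00, SE 0.07).

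Across the 34 genes the response was larger where the level was low. The 7 genes under 1 FPKM in vehicle (Slc7a11, Vldlr, Slc7a3, Slc1a4, Chac1, Trib3 and Pycr1) had a median log2 fold change of 1.18, and the 27 genes at 1 FPKM or more had a median of 0.16. Over all genes tested the same split gave medians of -0.02 and 0.01. Spearman's rho between vehicle FPKM and log2 fold change was -0.40 over the 34 genes and 0.07 over all 15095, as a description across genes of the same libraries. The vehicle libraries enter both the level and the fold change, so level and response are not independent here. How far that shapes the pattern was not tested. At the upper end, Atf4 (140 FPKM), Nars (73.8 FPKM ± 2.77) and Shmt2 (70.0 FPKM ± 6.94) led the order of levels in vehicle. Nars and Shmt2 differed by less than their spread, as did the neighbours Gars, Ddit4, Sars and Nupr1 at 43.5 to 49.9 FPKM.

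**Figure D3:**
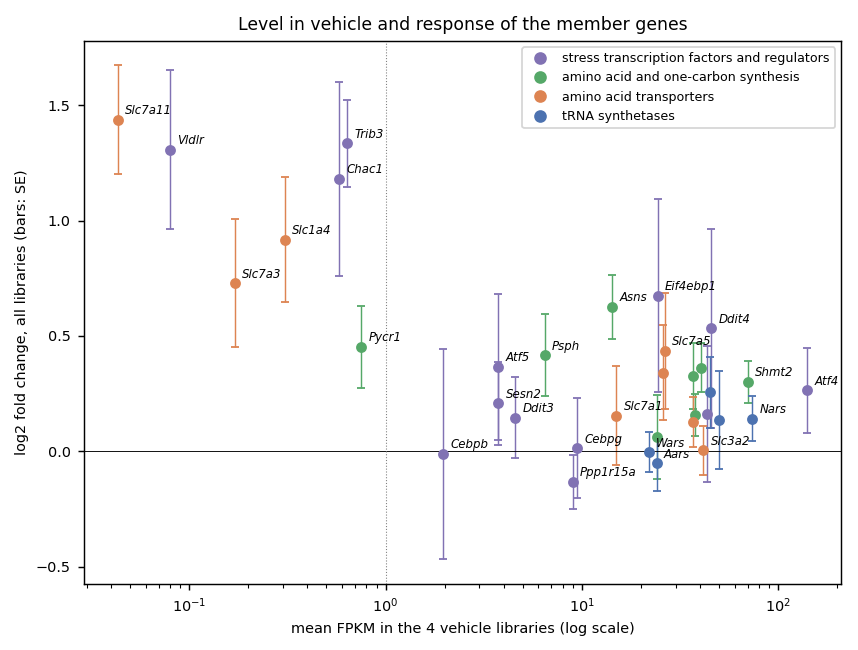
Mean FPKM in the 4 vehicle libraries (log axis) against the log2 fold change over all libraries (bars are SE) for the 34 genes, coloured by role. The 7 genes left of the dotted line at 1 FPKM have a median fold change of 1.18 on the log2 scale, and the 27 to its right a median of 0.16.

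In the sets taken apart, 28 of the 34 genes had a log2 fold change above 0 in both and 2 (Aars and Ppp1r15a) below 0 in both. Of all 15095 genes, 4735 were above 0 in both sets and 4722 below 0 in both. The median of the 34 genes was 0.31 (set A) and 0.24 (set B), and 0.00 in either set over all genes. Members with long transcripts stood lower in set A against set B (Spearman's rho between length and set difference -0.36 over the 34 genes and -0.40 over 14809 genes, a description). Ddit4 and Eif4ebp1 were the members furthest to the side of set A (log2 differences of 1.28 and 1.24), and Cebpb furthest to the side of set B (-1.03).

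**Figure D4:**
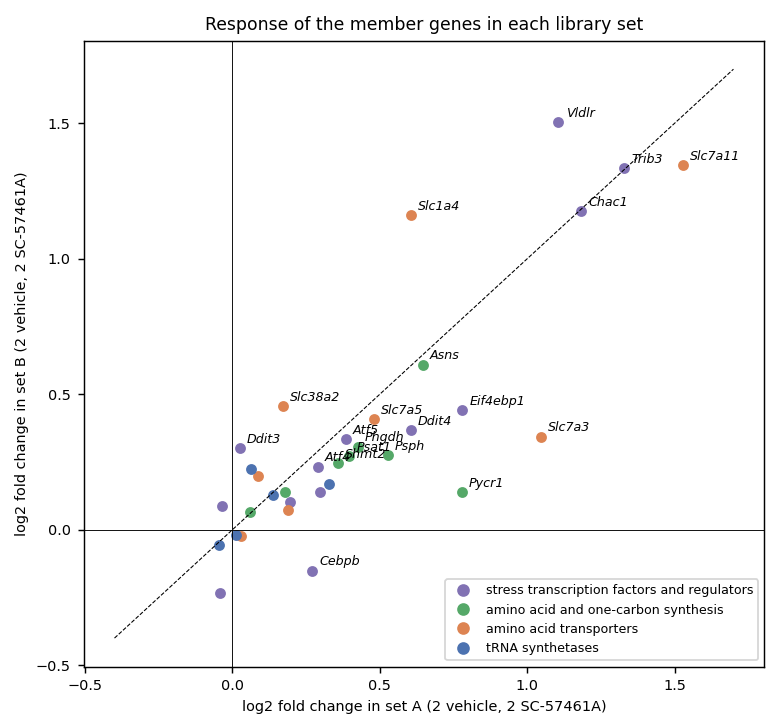
Log2 fold change of each of the 34 genes in set A (horizontal) and set B (vertical), each from 2 vehicle and 2 SC-57461A libraries, with the dashed line marking equal response. Trib3, Chac1 and Asns lie on or next to the line, Pycr1, Slc7a3 and Eif4ebp1 lie on the side of set A, and Slc1a4 and Slc38a2 on the side of set B.

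All 15 ILC2 markers looked at were counted in every library. With the set term 4 of them were called higher and 1 lower, where 3.01% and 2.82% of all genes were. The 15 summed to 21500 to 22500 CPM in vehicle and 22900 to 24100 CPM with SC-57461A in set A. In set B these sums were 18300 to 18900 CPM and 20600 to 21400 CPM. Raw counts of Gata3, Il1rl1 and Il17rb, not scaled to library size, were lower with SC-57461A in each set. For Gata3 in set A they were 47247 to 65393 in vehicle and 32259 to 40202 with SC-57461A. Many markers of other cells were low, but Kit ran from 24.1 to 73.7 FPKM and Il22 from 12.6 to 25.1 FPKM. Lyz2 reached 22.6 FPKM and Mcpt8 20.3 FPKM. Some markers moved with set and treatment. The 8 epithelial markers summed, for set A, to 15.0 to 23.1 CPM in vehicle and 37.3 to 42.2 CPM with SC-57461A and, for set B, to 13.6 to 15.7 CPM and 8.90 to 12.8 CPM, with 2 of the 6 tested called higher. Krt8, Krt19 and Cdh1 had a count of 0 in every library of set B, where Muc2 had at most 14 counts and Vil1 at most 4. Epcam was still counted there, at 747 to 785 in vehicle and 353 to 504 with SC-57461A, as was Krt18, at 154 to 219 and 86 to 145. Lgr5 had a count of 0 in all 8 libraries. The 10 macrophage and neutrophil markers summed to 30.7 to 52.3 CPM in set A and 6.12 to 8.11 CPM in set B, and Lyz2 was at 0 throughout set B. The 7 markers of natural killer cells, ILC1 and ILC3 summed to 25.9 to 29.4 CPM in vehicle and 41.7 to 47.1 CPM with SC-57461A in set A, and to 18.5 to 23.8 CPM and 28.2 to 34.5 CPM in set B, with 2 of the 3 tested called higher. Most of these counts were of the cytokine genes Il22 and Il17a, and Eomes, Tbx21, Ncr1 and Klrb1c had at most 20 counts in any library. The 3 of 6 mast cell and basophil markers that were in the table, mostly Kit, summed to 285 to 286 CPM in vehicle and 188 to 227 CPM with SC-57461A in set A, and to 399 to 468 CPM and 360 to 362 CPM in set B, with both tested called lower. Markers of endothelial and stromal cells summed to 74.9 to 90.7 CPM over the 8 libraries, those of T cells to 9.50 to 16.8 CPM and those of B and plasma cells to 13.9 to 18.8 CPM. Most endothelial and stromal counts were of Pecam1 (2976 to 6066 counts). Cdh5, Kdr, Col3a1 and Dcn had 22 to 248 counts in the libraries of set A and 0 in every library of set B. The part of any of these other cells in the changes of the 34 genes was not tested, and in bulk RNA a change in the share of cells and a change in RNA per cell cannot be told apart.

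Other genes of the same pathway were looked at for context, in lists of known function that do not hold the 34. With edgeR, none of the genes in these 8 lists passed the test over all libraries, so the calls given here are with the set term. DESeq2 over all libraries called 4 of 31 other ATF4 targets higher (Stc2, Ero1l, Vegfa and Slc6a9), beside 4 of the 34 members. In the ATF6 and XBP1 list it called Hspa5 higher. The upstream arm, with 16 genes for the eIF2α kinases, the subunits of eIF2 and eIF2B and regulators of this step (Ppp1r15b, Gcn1l1, Impact and Dele1), had 0 genes called in either direction by edgeR and by DESeq2, with a median log2 fold change of 0.02 (4 genes higher and 1 lower at an unadjusted p under 0.05). Eif2ak4, which encodes the amino acid sensor GCN2, was at 17.5 and 18.7 CPM (vehicle and treated means, log2 fold change 0.06), and Eif2ak3, which encodes PERK, at 46.3 and 43.8 CPM (-0.09).

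Among 31 other ATF4 targets tested, 7 were higher and 1 lower, with a median of 0.16. For these and the other lists, the shares of all genes called with the set term are 3.01% higher and 2.82% lower. At an unadjusted p under 0.05 with that term, 1698 of all 15095 genes were higher and 1706 lower, and DESeq2 called 653 higher and 851 lower. The list of other ATF4 targets held 12 higher and 2 lower at that unadjusted p, and DESeq2 called 8 higher and 2 lower. The 5 with the smallest p were Stc2, a secreted stress glycoprotein (19.1 CPM ± 3.32 against 32.2 CPM ± 6.07, log2 fold change 0.75, SE 0.07, adjusted p 0.000058), Cdkn1a, the cell cycle inhibitor p21 (0.55, SE 0.06, adjusted p 0.000133), Ero1l, an oxidase of the endoplasmic reticulum (0.60, SE 0.08, adjusted p 0.000483), Vegfa, the vascular growth factor (0.83, SE 0.13, adjusted p 0.00293), and Slc6a9, a glycine transporter (0.77, SE 0.17, adjusted p 0.0228). The calls of Stc2, Cdkn1a, Ero1l and Vegfa held in all 8 fits that left out 1 library, and that of Slc6a9 in 2 of the 8. Several of these genes also answer to other regulators, such as p53 for Cdkn1a and hypoxia-inducible factors for Vegfa. Atf3, a further stress factor, was low, at 0.267 and 0.289 CPM. The 1 lower gene of this list was Tubb2a, at 19.1 CPM ± 2.40 in vehicle and 14.8 CPM ± 1.46 with SC-57461A. Its log2 fold change was -0.365 (SE 0.09, adjusted p 0.0333), and its call held in 2 of the 8 fits that left out 1 library.

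The other 15 cytosolic tRNA synthetases had 0 genes called by edgeR (median 0.08; 4 higher and 0 lower at an unadjusted p under 0.05, and 2 called higher by DESeq2). The 17 mitochondrial synthetases also had 0 (median -0.01; 2 higher and 0 lower at an unadjusted p under 0.05, and 0 called by DESeq2). Of 16 other amino acid transporters 2 were higher, Slc6a9 and Slc7a6 (0.25, SE 0.06, adjusted p 0.0425), and 1 was lower (3 and 2 at an unadjusted p under 0.05, 2 and 1 by DESeq2). The call of Slc7a6 held in 0 of the 8 fits that left out 1 library (adjusted p up to 0.178). The lower gene was Slc7a8, known as LAT2, which also pairs with Slc3a2, at 153 CPM ± 23.7 in vehicle and 105 CPM ± 17.0 with SC-57461A (log2 fold change -0.54, SE 0.09, adjusted p 0.00452). Each treated library of Slc7a8 lay below each vehicle library, and its call held in all 8 fits that left out 1 library.

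Among 25 other folate, serine and related amino acid genes, the aminotransferase genes Got1 (0.27, adjusted p 0.0267) and Oat (0.27, adjusted p 0.032) were higher and Glul, for glutamine synthetase, lower (-0.29, adjusted p 0.035), and these 3 calls held in 2, 2 and 1 of the 8 fits that left out 1 library. At an unadjusted p under 0.05 this list held 5 higher and 2 lower, and DESeq2 called 2 higher and 1 lower. The parallel ATF6 and XBP1 branches of the unfolded protein response had 4 of 20 genes higher and 0 lower (median 0.11; at an unadjusted p under 0.05, 8 higher and 1 lower, and by DESeq2 7 higher and 0 lower). Their main chaperone gene Hspa5 was 1040 CPM ± 36.8 in vehicle and 1330 CPM ± 10.8 with SC-57461A (log2 fold change 0.35, SE 0.06, adjusted p 0.00412), without overlap and called in all 8 fits that left out 1 library. Calr, Sdf2l1 and Dnajc3 were higher by 0.27, 0.25 and 0.25 (adjusted p 0.0244, 0.0351 and 0.0471), with calls that held in 3, 1 and 1 of those 8 fits. Of 19 genes for amino acid sensing by mTORC1, Sesn3 was lower (-0.34, SE 0.08, adjusted p 0.0278, called in 3 of the 8 fits) and 0 were higher (median -0.06; 1 higher and 2 lower at an unadjusted p under 0.05, 0 higher and 1 lower by DESeq2). The lists share genes such as Slc6a9, Slc7a6 and Got1.

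**Figure D5:**
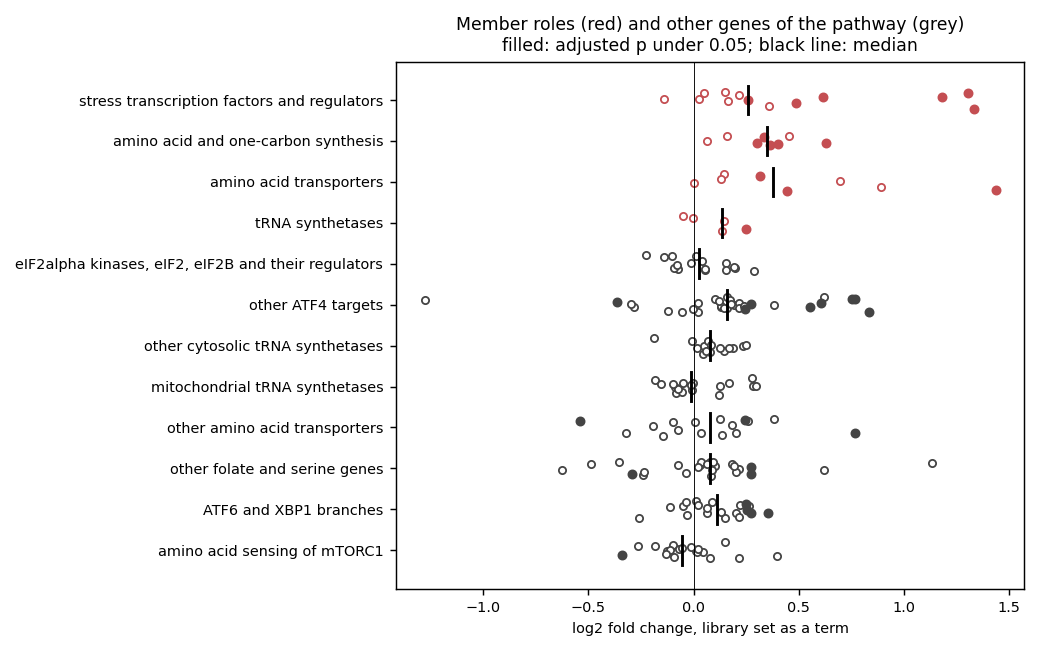
Log2 fold change with library set as a term for each gene of the 4 roles (red) and of the 8 lists of other pathway genes (grey), filled where the adjusted p is under 0.05, with a black line at each median. The medians of the roles run from 0.13 to 0.38, and those of the 8 lists from -0.06 to 0.16, the highest being the other ATF4 targets.

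The count of 15 members higher with the set term rested on all 8 libraries. It was 8, 6, 14 and 9 without vehicle replicates 1 to 4 and 10, 11, 11 and 6 without SC-57461A replicates 1 to 4. Trib3, Ddit4, Eif4ebp1, Asns, Slc7a5 and Slc7a11 were called in each of these 8 fits. Taken apart, set A called 3 members (Asns, Ddit4 and Eif4ebp1) and set B called 1 (Asns).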

How the data were processed

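RNA-seq of 8 libraries of total RNA gave a deposited table with a raw count and, per the file headers, an FPKM value per gene and library. The counts are the deposited whole numbers, and the FPKM values were computed by the authors. Reads were handled with cutadapt 4.7 and FastQC and build mm10 was used, per the submitters' processing notes. The step from reads to counts (aligner, counter, strand setting and annotation) was not given in the sources used here.

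Of 25367 genes 25032 were given a GENCODE M21 symbol by identifier. Total counts ran from 47376196 to 71155654 per library. Genes were filtered with filterByExpr (15095 kept), scaled with TMM factors and tested two-sided in edgeR 4.0.16 (quasi-likelihood, R 4.3.3), Benjamini-Hochberg adjusted over all genes tested and called at an adjusted p under 0.05. SE is the log2 fold change over the square root of F. CPM values use TMM factors. Library set as a term, each set alone, DESeq2 1.42.0, limma 3.58.1 on log2(FPKM + 1), other scalings and filters, and leaving out each library were the alternatives. The labels give no sets: they were read from the summed FPKM.

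The members and lists were chosen with earlier results of these data known. Members called in either fit, and Atf4, Atf5, Ddit3, Asns, Chac1, Trib3 and Slc7a11, are given library by library. From each other list the called genes are named, at most 5 by smallest p, with Tubb2a added as the lower gene of its list. The few further genes of a list that are named (Eif2ak3, Eif2ak4 and Atf3) were chosen after their values were seen. Near-identical copies were sought with BLAST 2.17.0. The script was tested on simulated data of known changes.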

Additional observations from a re-analysis of the deposited data

Results flagged for a closer look

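In 1 of the 68 groups of 4 libraries looked at (34 genes in 2 treatments), a single library stood apart from the other 3. It was Slc1a5 in SC-57461A replicate 3, at 163 CPM against 192, 193 and 193 CPM in replicates 1, 2 and 4, a gap of 0.98 of the whole range. By chance about 1 in 20 such groups would be picked out. In vehicle the same gene ran from 153 to 185 CPM, so the library that stood apart lay inside the vehicle range.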

How the results depend on the processing

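The number of members called higher was 1 over all libraries and moved to 2 with a filter of 1 CPM in 4 libraries, 4 with DESeq2, 15, 16 and 8 with library set as a term (edgeR, DESeq2 and limma), 3 in set A alone, and 0 to 1 when a library was left out (6 to 14 with the set term). No member was called lower under any alternative. The median log2 fold change of 0.28 became 0.15 with limma on log2(FPKM + 1), with or without the filter or the set term, and 0.216 to 0.323 when a library was left out (0.244 to 0.30 with the set term). Called genes over the whole table numbered 41 higher and 9 lower, 117 and 78 with DESeq2, 455 and 425 with the set term and 653 and 852 with the set term in DESeq2. Deviations of same-numbered libraries from their group means had correlations of -0.587, 0.634, -0.561 and 0.608. These were positive where both libraries belonged to the same set and negative where they did not. The correlations thus follow the sets and cannot show whether the numbers pair the libraries. With the replicate block 0 members and 13 and 1 genes overall were called. Of 1019 values of single members over 30 alternatives, 844 kept direction and side of the threshold, 111 passed it, 10 no longer passed it and 54 changed sign, the last in 6 genes near 0, and the cause was not tested. Cebpb was 0.048 with the set term, 0.043 with it in DESeq2 and 0.27 in set A, and ran from -0.369 to 0.314 when a library was left out. Cebpg was -0.008 with library totals, -0.001 without a filter, -0.002 with limma on log2(FPKM + 1) in all 3 forms, -0.001 with a pseudocount of 0.1 and -0.036 in set A, and ran from -0.107 to 0.161 in the leave-outs. Slc3a2 was -0.02 with library totals, -0.014 without a filter, -0.006 with DESeq2 (-0.008 with the set term), -0.03 in each limma fit, -0.001 with the replicate block and -0.023 in set B, and ran from -0.072 to 0.06. In the leave-outs Aldh18a1 ran from -0.029 to 0.181 and Aars from -0.104 to 0.022. Wars was 0.012 in set A and ran from -0.04 to 0.038. Members under 1 FPKM rest on low counts, which limits their precision.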
